A study of Mus musculus with 22 samples.

Results

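The core circadian clock loop is described here by the mRNA levels of 10 genes in striatum and in white adipose tissue (WAT) of mice. The genes were listed by name, without use of their values: the activators Arntl, Clock and Npas2, the period genes Per1, Per2 and Per3, the cryptochromes Cry1 and Cry2, and the REV-ERB genes Nr1d1 and Nr1d2. Each gene had 1 row in each count table, among 55341 rows in striatum and 47643 in WAT. All 10 passed the filter on low counts in both tissues.

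The clock is a feedback loop of transcription that runs in nearly every cell of the body and is set by light through the brain, and in peripheral tissues also by feeding and hormones. BMAL1, the product of Arntl, pairs with CLOCK or its relative NPAS2 and switches on genes that carry E-box sequences, among them the Per, Cry and REV-ERB genes. PER and CRY proteins return to the nucleus and inhibit BMAL1 and CLOCK, while REV-ERBα (Nr1d1) and REV-ERBβ (Nr1d2) repress Arntl, Npas2, Clock and Nfil3 at ROR elements. Activator and REV-ERB mRNAs therefore peak at opposite times of the day in tissues such as liver and fat.

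RNA was sequenced from 22 libraries of C57BL/6J wild-type mice, labelled as males of 8 weeks. The control libraries, called PTU here, carried 2 weeks of propylthiouracil (PTU), a blocker of thyroid hormone synthesis, in their labels. The other libraries were labelled with thyroid hormone (TH, given by intraperitoneal injection as T3 and T4 according to the study's methods) and a time, with no mention of PTU. The study's overview lists no hypothyroidism procedure for striatum, so that PTU was given to the striatum controls is known from their labels only. WAT was sampled in PTU mice and 6 h and 24 h after TH (4 libraries each), and striatum in PTU mice (2 libraries, replicates 3 and 6) and 12 h and 24 h after TH (4 each). The hour of the day of injection and of sampling was not given in the sources used here, so time after TH and time of day cannot be told apart in any of the comparisons. The labels did not say that replicates were separate animals, so p-values measure the spread between these libraries.

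Total counts ran from 8.04 to 10.1 M in striatum and from 17.3 to 26.9 M in WAT, and the lowest raw count of a clock gene in a library was 61 in striatum and 13 in WAT. The summed level of 8 white adipocyte markers was 12294 to 24577 CPM in WAT and at most 17.6 CPM in striatum. CPM are counts per M of the scaled size of the library. Among the striatum libraries, 24 h replicate 2 had 31.4 normalised counts of the striatal gene Drd2 where the others had 832 to 2151, and the highest level of the cortical gene Slc17a7. Although all mice were labelled male, 6 of the 10 striatum libraries had 22070 to 33693 normalised counts of Xist, the RNA of the inactive X chromosome, namely PTU replicate 6, 12 h replicate 1 and all 4 at 24 h. The 12 WAT libraries had at most 8.73. Of the Y-linked gene Ddx3y the 6 had 0 to 1.19 normalised counts and the other striatum libraries 186 to 254. High Xist was thus spread unevenly over the striatum groups and found in no WAT library. It is therefore mixed with time in striatum and with tissue in the comparison of tissues. A normalised count is the count of a gene divided by the scaled size of its library, times the mean scaled size in the tissue.

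Promoter sequences are shown for 4 clock genes that rise or fall at different times in WAT, because they hold the short elements through which the loop is known to act. The sequences are from RefSeq (GRCm38.p6), 250 bases before to 50 after an annotated start, and the table used held 13 such windows for 9 of the 10 genes. Capitals mark each match, on either strand, to the E-box CACGTG, the E'-box CACGTT, the D-box TTATGNAA bound by DBP, TEF, HLF and NFIL3, the ROR element TAGGTCA or its variant TAGGTTA. The windows are Arntl at chr7:113207261-113207560 (plus strand), Per1 at chr11:69098699-69098998 (plus strand), Per3 at chr4:151044616-151044915 (minus strand) and Cry1 at chr10:85185005-85185304 (minus strand).
Arntl: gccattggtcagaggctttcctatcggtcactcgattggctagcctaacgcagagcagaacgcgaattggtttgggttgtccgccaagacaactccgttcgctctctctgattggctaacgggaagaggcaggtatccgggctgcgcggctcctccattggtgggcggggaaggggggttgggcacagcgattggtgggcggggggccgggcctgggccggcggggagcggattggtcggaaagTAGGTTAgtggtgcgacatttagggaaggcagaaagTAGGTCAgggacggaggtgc
Per1: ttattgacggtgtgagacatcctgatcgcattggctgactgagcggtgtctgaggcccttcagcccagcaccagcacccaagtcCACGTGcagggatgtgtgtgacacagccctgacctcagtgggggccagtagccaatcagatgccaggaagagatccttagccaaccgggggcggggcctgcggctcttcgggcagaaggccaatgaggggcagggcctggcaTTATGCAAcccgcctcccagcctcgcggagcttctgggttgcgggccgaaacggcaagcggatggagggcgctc
Per3: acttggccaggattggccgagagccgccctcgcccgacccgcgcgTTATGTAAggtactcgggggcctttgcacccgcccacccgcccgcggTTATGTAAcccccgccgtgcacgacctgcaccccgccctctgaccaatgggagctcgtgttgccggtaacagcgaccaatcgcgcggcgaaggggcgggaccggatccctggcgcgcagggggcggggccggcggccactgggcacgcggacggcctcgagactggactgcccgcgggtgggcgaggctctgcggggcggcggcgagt
Cry1: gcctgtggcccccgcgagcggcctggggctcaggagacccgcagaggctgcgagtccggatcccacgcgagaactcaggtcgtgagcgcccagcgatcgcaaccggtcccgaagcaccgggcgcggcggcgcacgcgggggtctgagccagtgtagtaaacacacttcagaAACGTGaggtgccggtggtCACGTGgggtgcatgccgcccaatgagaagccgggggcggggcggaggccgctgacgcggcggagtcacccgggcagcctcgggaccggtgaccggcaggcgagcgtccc
Arntl held the ROR element at position 31 and its variant at position -6, counted from the start. Per3 held 2 D-boxes, Per1 an E-box and a D-box, and Cry1 an E-box and an E'-box. Of 32851 promoter windows of this length in the table, 7.15% held an E-box, 4.68% an E'-box, 3.39% a D-box, 2.61% a ROR element and 1.44% its variant. The Cry2 and Nr1d1 windows held an E'-box, a second window of Per1 held the cAMP response core TGACGT (found in 7.51% of windows), and those of Clock, Npas2 and Nr1d2 held none of the 6 motifs. A match is a run of letters and does not show that a factor binds there.

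In WAT the clock genes moved in opposite directions at 6 h. Activator mRNAs fell, by 1.75-fold for Clock, 5.28-fold for Arntl and 15.8-fold for Npas2, while Per1, Per2, Per3 and Nr1d2 rose by 2.60-fold to 6.69-fold. At 24 h the activators and the Per genes were not called against PTU, whereas Nr1d1, Nr1d2 and Cry2 were lower than in PTU mice by 2.07-fold to 3.17-fold and Cry1 was 1.79-fold higher. In numbers, 4 of the 10 rose and 3 fell at 6 h against PTU, where 7.23% of the 17928 genes tested were called (4.18% higher and 3.05% lower). At 24 h against PTU 1 rose and 3 fell, where 17.1% of the genes were called (7.45% higher and 9.62% lower). Between 6 h and 24 h 4 rose and 5 fell, where 7.41% were called (3.07% higher and 4.35% lower). The values of 8 clock genes did not overlap between 6 h and PTU (13.9% of all genes), of 3 between 24 h and PTU (19.3%) and of 9 between 24 h and 6 h (21.8%). The 3 comparisons share libraries and are not independent of one another. The median size of the log2 change of the 10 genes was 1.42 at 6 h, 0.53 at 24 h and 2.24 between the times, beside 0.21, 0.26 and 0.21 over all genes tested. Calls rest on edgeR's quasi-likelihood test, with p-values adjusted over all genes tested by the method of Benjamini and Hochberg and a threshold of 0.05. In these bulk samples, fewer cells of a type and less RNA per cell cannot be told apart.

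**Figure D1:**
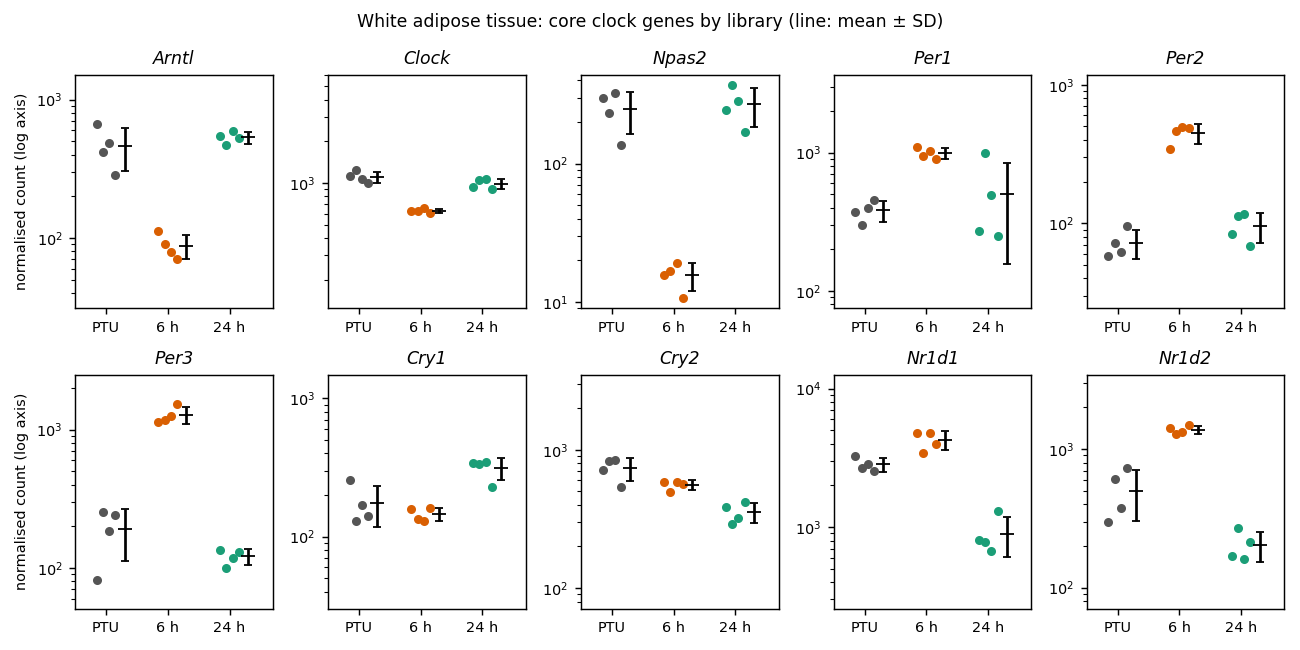
Normalised counts of the 10 clock genes in each WAT library (points, log axis, each panel spanning the same ratio) for PTU mice and 6 h and 24 h after TH, with mean ± SD (n = 4) beside the points. The 3 activators are lowest in the 4 libraries at 6 h and Per2, Per3 and Nr1d2 highest, and Nr1d1, Nr1d2 and Cry2 are lowest at 24 h.

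Arntl, whose product BMAL1 pairs with CLOCK and NPAS2, had 666, 419, 485 and 287 normalised counts in the 4 PTU libraries, 112, 90.9, 79.3 and 70.6 at 6 h and 547, 467, 593 and 528 at 24 h. All 4 libraries at 6 h lay below every other WAT library, and the PTU and 24 h libraries overlapped. The log2 change was -2.40 ± 0.23 (SE) at 6 h (edgeR adjusted p 6.45e-05) and 0.20 ± 0.21 at 24 h, with a 95% interval of -0.26 to 0.66 (edgeR adjusted p 0.543). Npas2, which can take the place of CLOCK, had 297, 233, 321 and 135 normalised counts in PTU mice, 15.7, 16.9, 19.3 and 10.7 at 6 h and 246, 370.5, 285 and 170.4 at 24 h. It had the widest span of the 10 genes, with a ratio of 17.2 between its highest and lowest group means. Its log2 change was -3.99 ± 0.33 at 6 h (edgeR adjusted p 2.50e-05) and 0.12 ± 0.27 at 24 h (-0.47 to 0.70, edgeR adjusted p 0.794). Clock itself, which encodes the acetyltransferase and DNA-binding partner of BMAL1, had 1121, 1235, 1066 and 995 in PTU mice, 627, 631, 660 and 609 at 6 h and 939.5, 1054, 1072 and 899 at 24 h. The fall at 6 h was smaller than that of its partners but the groups did not overlap, and the log2 change was -0.81 ± 0.09 (edgeR adjusted p 2.06e-04), then -0.16 ± 0.09 at 24 h (edgeR adjusted p 0.239). From 6 h to 24 h the activators rose again, by 2.60 ± 0.23 for Arntl, 4.10 ± 0.33 for Npas2 and 0.65 ± 0.09 for Clock on the log2 scale (edgeR adjusted p 8.77e-05, 8.28e-05 and 0.00139).

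The period genes encode the PER proteins that carry the negative signal of the loop. Per2 had 57.6, 71.8, 62.3 and 95.9 normalised counts in PTU mice, 341, 467, 498 and 486 at 6 h and 82.96, 113, 116 and 68.6 at 24 h. Per3 had 82.6, 254, 185 and 242 in PTU mice, 1137, 1169, 1253 and 1529.9 at 6 h and 136, 99.9, 119 and 131 at 24 h. For both genes the 6 h libraries stood above all others without overlap, and the 24 h libraries fell within or beside the range of PTU mice. Per2 rose by 2.65 ± 0.21 on the log2 scale at 6 h (edgeR adjusted p 1.85e-05) and Per3 by 2.74 ± 0.27 (edgeR adjusted p 8.90e-05). At 24 h neither was called, with log2 changes of 0.41 ± 0.21 for Per2 (edgeR adjusted p 0.197) and -0.65 ± 0.27 for Per3 (edgeR adjusted p 0.119). The Per3 value depended on PTU replicate 1, its lowest PTU library. Without that library Per3 fell by 0.90 on the log2 scale at 24 h (edgeR adjusted p 0.00202). Between 6 h and 24 h the log2 changes of Per2 and Per3 were -2.23 and -3.39 (edgeR adjusted p 1.19e-04 and 8.28e-05). Per1, which is also switched on directly by cAMP and by glucocorticoids, had 372, 300.5, 398 and 457 in PTU mice and 1097, 944, 1034 and 902 at 6 h, without overlap. At 24 h it had 270.1 and 250.1 in replicates 1 and 4, 490.3 in replicate 3 and 986 in replicate 2, which was as high as the 6 h libraries. The rise at 6 h was 1.38 ± 0.35 on the log2 scale (edgeR adjusted p 0.0338), with a rise of 1.28 when PTU replicate 2 was left out, which was then no longer called (edgeR adjusted p 0.0950). It was called in 5 of 12 fits that left out 1 WAT library each, and not with the replicate number as a block (edgeR adjusted p 0.0643). From 6 h to 24 h the log2 change of Per1 was -0.99 ± 0.35 (edgeR adjusted p 0.101) and, without 24 h replicate 2, -1.57 (edgeR adjusted p 0.00290).

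The cryptochromes encode the strongest repressors of BMAL1 and CLOCK, and in WAT the pair moved apart. Cry1 had 256, 129, 169 and 141 normalised counts in PTU mice, 158, 135, 131 and 162 at 6 h and 339.5, 337, 344 and 227 at 24 h. Cry2 had 709.96, 828, 848 and 542 in PTU mice, 588, 491, 582 and 563 at 6 h and 383, 290.9, 324 and 417 at 24 h. At 6 h neither was called, with log2 changes of -0.25 ± 0.21 (-0.70 to 0.20) for Cry1 and -0.40 ± 0.15 (-0.72 to -0.08) for Cry2 (edgeR adjusted p 0.470 and 0.123). At 24 h Cry1 was higher than in PTU mice by 0.84 ± 0.21 on the log2 scale (edgeR adjusted p 0.0150), although its lowest 24 h library lay below its highest PTU library. Cry2 fell by 1.05 ± 0.15 on the log2 scale (edgeR adjusted p 6.85e-04), with no overlap. Between 6 h and 24 h Cry1 rose by 1.09 ± 0.21 on the log2 scale (edgeR adjusted p 0.00986) and Cry2 fell by 0.65 ± 0.15 (edgeR adjusted p 0.0224). The latter was not called with the replicate block (edgeR adjusted p 0.0603), nor in 2 of the 12 fits that left out a library. Cry2 shares 295 of its 6320 exonic bases with D930015M05Rik on the opposite strand, and the strand setting of the counting was not stated.

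The REV-ERB genes encode nuclear receptors that bind haem and silence the activators. Nr1d2 had 299.7, 607, 374 and 729 normalised counts in PTU mice, 1423, 1283, 1323 and 1499.5 at 6 h and 169, 269, 161 and 212 at 24 h. The 3 groups did not overlap, with 6 h highest and 24 h lowest. Nr1d2 rose by 1.46 ± 0.25 on the log2 scale at 6 h (edgeR adjusted p 0.00391) and at 24 h had a log2 change of -1.30 ± 0.25 against PTU (edgeR adjusted p 0.00431). Nr1d1 had 3288, 2657, 2868 and 2528 in PTU mice, 4811, 3456.5, 4765 and 3985 at 6 h and 807, 781, 673 and 1313 at 24 h, also without overlap. Its log2 change was 0.59 ± 0.19 at 6 h, short of the threshold (edgeR adjusted p 0.0815), and -1.67 ± 0.19 at 24 h (edgeR adjusted p 1.59e-04). Between the times Nr1d1 fell by 2.25 ± 0.20 and Nr1d2 by 2.77 ± 0.26 on the log2 scale (edgeR adjusted p 8.77e-05 and 1.29e-04). Nr1d1 overlaps Thra, the gene of thyroid hormone receptor α, on the opposite strand, with 263 of its 3077 exonic bases shared, and how reads in that stretch were counted was not stated. Thra had lower counts at both times in WAT, with log2 changes of -0.52 ± 0.14 and -0.73 ± 0.14 (edgeR adjusted p 0.0422 and 0.00436). The part of Thra reads in the counts of Nr1d1 was not tested.

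**Figure D2:**
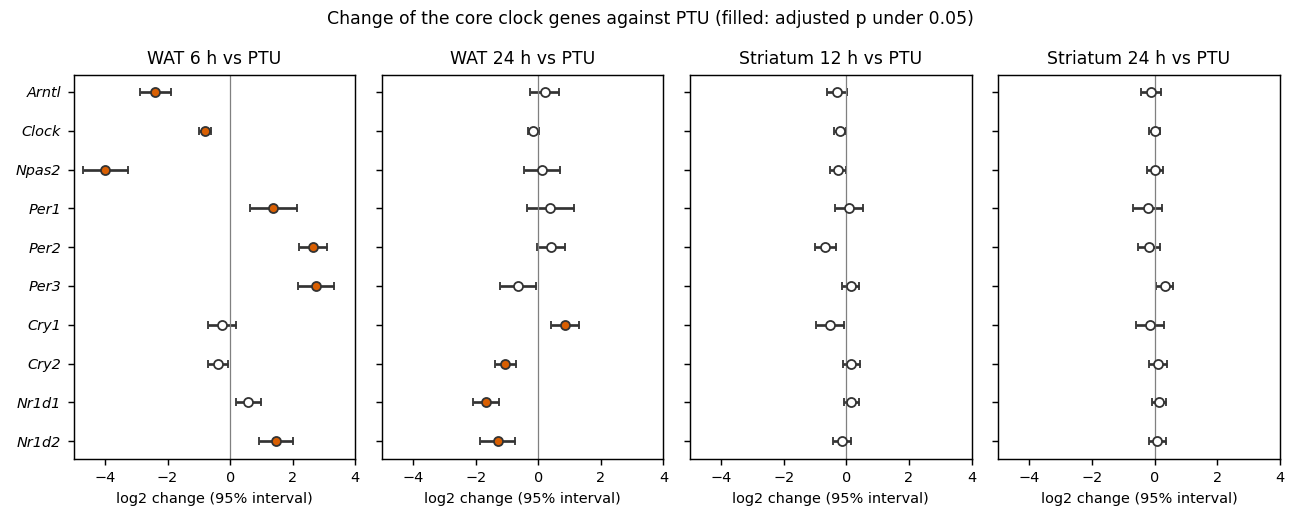
Log2 change of each clock gene against PTU (x axis) with its 95% interval in WAT at 6 h and 24 h and in striatum at 12 h and 24 h, filled where the edgeR adjusted p was under 0.05. At 6 h in WAT the filled points are the 3 activators, left of 0, and Per1, Per2, Per3 and Nr1d2, right of it, at 24 h in WAT they are Cry1, Cry2, Nr1d1 and Nr1d2, and no gene is filled in striatum.

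Averaged by role and set relative to the mean of the PTU libraries of the tissue, the log2 level of the activators in WAT at 6 h was -2.36 (range over 4 libraries -2.65 to -2.23), that of the Per genes 2.30 (2.17 to 2.39) and that of the REV-ERB genes 1.06 (0.87 to 1.18). At 24 h the activators were at 0.08 (-0.17 to 0.22), within the PTU range of -0.52 to 0.32, and the Per genes at 0.01 (-0.35 to 0.42), beside a PTU range of -0.47 to 0.40 that replicate 2 at 24 h exceeded. The REV-ERB genes were at -1.48 (-1.81 to -1.13), below their PTU range of -0.22 to 0.23. The average of the cryptochromes was -0.08 (-0.18 to 0.05), within its PTU range of -0.33 to 0.29, with Cry1 higher and Cry2 lower. Counts of Per3 per count of Arntl had a median of 0.494 in PTU mice, 14.3 at 6 h and 0.231 at 24 h, and counts of Nr1d1 per count of Cry1 17.4, 28.04 and 2.35. These averages describe genes of a fixed list and were not tested.

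**Figure D3:**
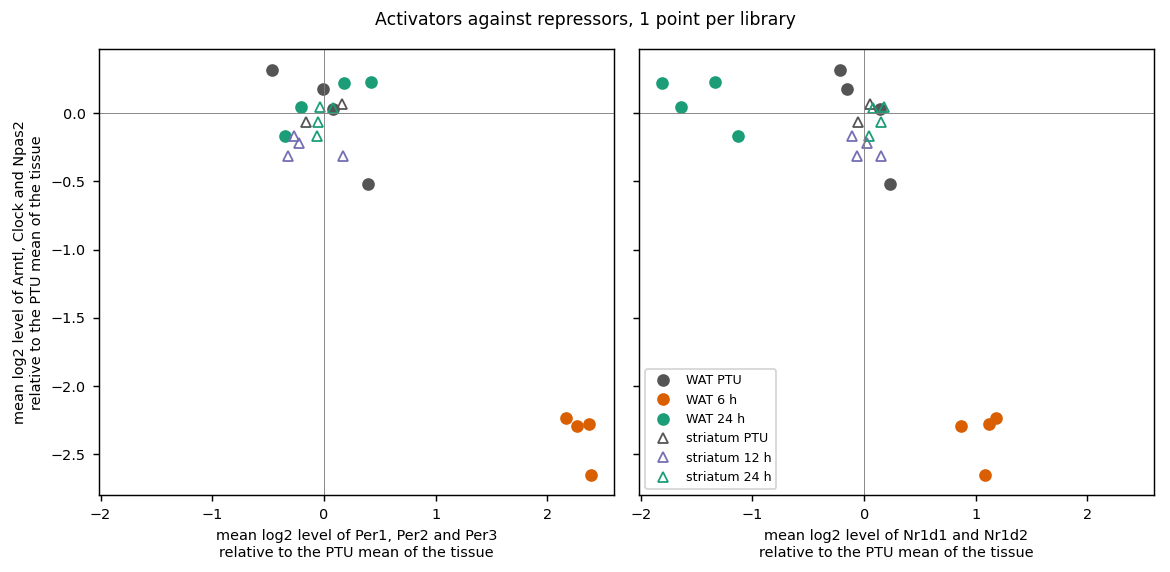
Mean log2 level of the 3 activators (y axis) against that of the 3 Per genes (left) and of the 2 REV-ERB genes (right), 1 point per library, relative to the PTU mean of the tissue. The WAT libraries at 6 h lie at -2.65 to -2.23 on the y axis, those at 24 h lie at -1.81 to -1.13 on the x axis of the right panel, and the striatum libraries stay near 0.

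The PTU libraries of WAT differed among themselves in these genes. Replicate 1 had the highest Arntl and Cry1 and the lowest Per2, Per3 and Nr1d2 of the 4, and replicate 4 the lowest Arntl, Clock and Npas2 and the highest Per1, Per2 and Nr1d2. Nr1d1 went the other way from Nr1d2, with 3288 normalised counts in replicate 1, the highest, and 2528 in replicate 4, the lowest. Clock and Per3 were highest in replicate 2 and Npas2 in replicate 3. The mean log2 level of the activators was 0.32 in replicate 1 and -0.52 in replicate 4, and that of the Per genes -0.47 and 0.40. The levels of the 6 h libraries lay outside this spread for both roles. Skeletal muscle RNA also differed between WAT libraries. All 8 muscle markers were in the table, and their sum was 9312, 176, 225 and 23399 CPM in PTU replicates 1 to 4, 81.5 to 4400 CPM at 6 h and 1780 to 12665 CPM at 24 h, with none at 0 in a whole group. Without PTU replicate 4, which had the most muscle RNA, the log2 changes at 6 h were -2.55 for Arntl, -4.16 for Npas2, 2.90 for Per3 and 1.72 for Nr1d2, all called. The 5 brown adipocyte markers summed to 76.8 to 140 CPM in PTU mice, 196 to 407 CPM at 6 h and 338 to 984 CPM at 24 h, the 6 leukocyte markers to 400 to 638, 356 to 713 and 578 to 701 CPM, and the 8 white adipocyte markers to 19505 to 24577, 16600 to 19778 and 12294 to 17149 CPM. The 5 markers of stratified epithelium summed to at most 18.3 CPM in PTU mice, 131 CPM at 6 h and 0.361 CPM at 24 h. The part of these other cells in the changes of the clock genes was not tested.

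In striatum no clock gene was called in edgeR at 12 h or 24 h against PTU, or between the times. At 12 h 0.960% of the 15827 genes tested were called (0.733% higher and 0.227% lower), at 24 h 0.348% (0.316% higher and 0.0316% lower) and between the times 0%. An unadjusted p under 0.05 was reached by 4 of the 10 at 12 h, 1 at 24 h and 5 between the times, where 20.2%, 9.63% and 14.6% of all genes did so. DESeq2 called 1 gene, Per2, at 12 h and none in the other comparisons. The median size of the log2 change of the 10 genes was 0.18, 0.13 and 0.22, beside 0.21, 0.16 and 0.15 over all genes. The highest and lowest group means differed by a ratio of 1.11 to 1.60 per gene (median 1.22), against 1.75 to 17.2 (median 5.41) in WAT. These ratios cover unlike times, since the early group was at 12 h in striatum and at 6 h in WAT. With 2 PTU libraries the groups of 7 clock genes did not overlap at 12 h, where 36.4% of all genes did not overlap, of 1 at 24 h (18.2% of all genes) and of 3 between the times (8.30% of all genes).

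**Figure D4:**
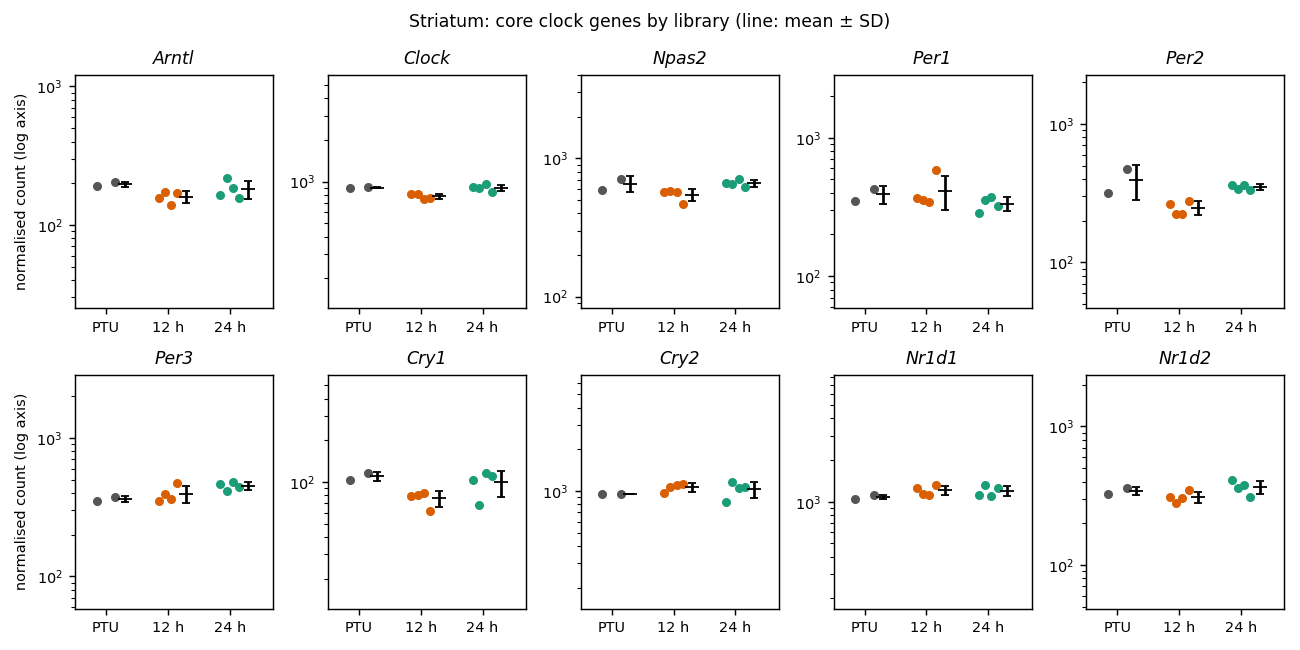
Normalised counts of the 10 clock genes in each striatum library (points, log axis spanning the same ratio as in the WAT panels) for PTU mice (n = 2) and 12 h and 24 h after TH (n = 4 each), with mean ± SD beside the points. The means of a gene differ by at most 1.60-fold between groups, the largest ratio being that of Per2.

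Per2 came closest to the threshold in striatum. It had 315 and 475 normalised counts in PTU mice, 263, 223, 223 and 279 at 12 h and 365, 337, 362 and 332 at 24 h. The 12 h libraries were below all others, and PTU and 24 h overlapped. The log2 change at 12 h was -0.68 ± 0.15 (edgeR adjusted p 0.0656), with an adjusted p of 0.0119 in DESeq2, and 0.0276 in edgeR without 24 h replicate 2, the library with little Drd2. Leaving out either PTU library leaves 1. Without PTU replicate 6 the log2 change was -0.35 and without PTU replicate 3 it was -0.95, so its size depended on the PTU library kept. With a term for Y-linked genes the log2 change of Per2 at 12 h was -0.58 (edgeR adjusted p 0.0991). Cry1 had 104 and 116 in PTU mice and 79.3, 80.2, 83.4 and 61.9 at 12 h, with a log2 change of -0.53 ± 0.20 that was not called (edgeR adjusted p 0.188). Its lowest 24 h library, with 68.4, was replicate 2 of that time.

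The activators in striatum differed by little between groups. Arntl had 191 and 203 normalised counts in PTU mice, 157, 173, 139.6 and 170.2 at 12 h and 165, 217, 183 and 158 at 24 h, with log2 changes of -0.30 (-0.62 to 0.02) and -0.12 (-0.44 to 0.20). Npas2 had 591 and 713 in PTU mice, 569, 575, 570.2 and 463 at 12 h and 659, 652, 708 and 616 at 24 h, with log2 changes of -0.26 (-0.52 to -0.005) and 0.01 (-0.24 to 0.27). Clock had 896 and 912, then 754 to 819 and 845 to 955, with log2 changes of -0.20 (-0.39 to -0.01) and 0.001 (-0.19 to 0.19). All 3 were below both PTU libraries in all 4 libraries at 12 h, and none of the differences was called (edgeR adjusted p 0.216 to 0.273). The REV-ERB genes stayed within 1054 to 1319 for Nr1d1 and 278 to 409.6 for Nr1d2 over all 10 libraries, and Cry2 within 837 to 1161. Per3 had 348 and 373 in PTU mice and 414 to 477 at 24 h, a log2 change of 0.32 ± 0.13 (edgeR adjusted p 0.447), and Per1 287 to 582 over the 10 libraries. The markers of cortex and striatum also differed between these groups. The 8 cortical excitatory markers summed to 460 to 853 CPM in PTU mice, 1114 to 1695 CPM at 12 h and 648 to 2720 CPM at 24 h, and the 10 striatal projection neuron markers to 4069 to 5902, 2329 to 3791 and 312 to 6187 CPM. Their part in the values of the clock genes was not tested.

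To compare the tissues, all 22 libraries were fitted together and the interaction of tissue and treatment was tested for 12766 genes. At 24 h, the time that both tissues share, the change against PTU was lower in WAT than in striatum for Nr1d1 by 1.81 ± 0.25, for Nr1d2 by 1.39 ± 0.33 and for Cry2 by 1.16 ± 0.21, that is, differences of -1.81, -1.39 and -1.16 on the log2 scale (edgeR adjusted p 2.38e-04, 0.0169 and 0.00299). That is 3 of 10 genes, all lower, where 5.14% of all genes were called (1.72% higher and 3.42% lower). With a term for Y-linked genes in striatum the differences of Nr1d1, Nr1d2 and Cry2 were -1.76, -1.37 and -1.19 (edgeR adjusted p 0.00108, 0.0369 and 0.00673). Nr1d2 was not called when either PTU library of striatum was left out (edgeR adjusted p 0.113 and 0.0774) or when only the 24 h and PTU groups were fitted (0.0873). The difference for Cry1 was 0.99 ± 0.31 (edgeR adjusted p 0.0691) and that for Arntl 0.33 (-0.28 to 0.94). For Clock, Npas2, Per1, Per2 and Per3 it was -0.15, 0.10, 0.62, 0.60 and -0.96, none called (edgeR adjusted p 0.108 to 0.893). Thra, the neighbour of Nr1d1, differed by -0.95 ± 0.24 (edgeR adjusted p 0.0256).

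The early times differ between the tissues, so WAT at 6 h and striatum at 12 h are compared as labelled, with time and tissue not separable. Npas2, Arntl and Clock had lower changes in WAT, by -3.72 ± 0.40, -2.09 ± 0.31 and -0.59 ± 0.13 (edgeR adjusted p 1.10e-05, 4.83e-04 and 0.0102). Clock was not called without PTU replicate 3 of striatum (edgeR adjusted p 0.0541) or with no filter on low counts (0.0645). Per2, Per3 and Nr1d2 had higher ones, by 3.34 ± 0.27, 2.63 ± 0.32 and 1.63 ± 0.31 (edgeR adjusted p 7.95e-07, 5.48e-05 and 0.00520). Of all genes 5.01% were called (2.56% higher and 2.45% lower), and Per2 had the smallest p of the 12766. Per1, with a difference of 1.32 ± 0.46, was not called (edgeR adjusted p 0.102), nor were Nr1d1 (0.45 ± 0.24, edgeR adjusted p 0.294), Cry1 (0.29 ± 0.31) and Cry2 (-0.55 ± 0.21).

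Set side by side per length, as CPM per kb of exon, the order of the clock genes differed between groups of WAT and little between groups of striatum. Nr1d1 was highest in all 6 groups, at 42.9, 64.4 and 13.5 CPM per kb in WAT (PTU, 6 h, 24 h) and 37.4, 41.7 and 41.3 in striatum (PTU, 12 h, 24 h). In striatum Cry2 and Npas2 followed in each group, at 15.98 to 17.9 and 12.1 to 14.6 CPM per kb, and Cry1 and Arntl were lowest. In WAT Npas2 and Arntl were the lowest at 6 h, at 0.152 and 0.546 CPM per kb, and Per2 and Per3 the lowest in PTU mice and at 24 h, at 0.572 to 0.925 CPM per kb. Per3 in PTU libraries of WAT ran from 0.400 to 1.23 CPM per kb and Per2 from 0.458 to 0.763, so these neighbours did not differ beyond their spread, nor did Arntl, Cry1 and Npas2 in PTU mice (1.77 to 4.12, 1.80 to 3.56 and 1.31 to 3.12 CPM per kb). The exonic length was taken from GENCODE M21 for the whole gene, and the transcripts in use in each tissue were not determined.

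Of 19 other genes of the clock, 6 rose and 1 fell in WAT at 6 h, where 7.23% of all genes were called. The PAR bZIP factors Dbp, Hlf and Tef, which bind D-boxes, rose by 4.68, 2.99 and 2.27 on the log2 scale (edgeR adjusted p 4.30e-05, 4.24e-05 and 1.79e-05). Dbp had 56.7, 107, 52.3 and 241 normalised counts in PTU mice, 2285, 2548, 3416 and 3279 at 6 h and 199, 122, 173 and 196 at 24 h. Ciart, a repressor of the loop, rose by 3.48, the ubiquitin protease gene Usp2 by 2.39 and the kinase gene Csnk1e by 0.44 (edgeR adjusted p 5.73e-04, 0.00269 and 0.0294). The call of Csnk1e held in 9 of 12 fits that left out a library. Nfil3, a D-box repressor that REV-ERB represses, fell by 2.39 on the log2 scale (edgeR adjusted p 4.87e-05), from 267 to 363 normalised counts in PTU mice to 46.8 to 93.2 at 6 h, and was at 253 to 388 at 24 h. At 24 h in WAT none of the 19 rose and 3 fell, where 9.62% of all genes were called lower, and among them were Rora and Fbxl21, which fell by 1.02 and 1.45 on the log2 scale (edgeR adjusted p 0.00324 and 0.00288). Rora encodes the activator that competes with REV-ERB at ROR elements, and FBXL21 acts on the turnover of cryptochromes. Fbxl21 had few counts in WAT, with mean normalised counts of 17.6 in PTU mice and 6.36 at 24 h. Its lowest raw count at 24 h was 5. Between 6 h and 24 h 1 rose (Nfil3) and 9 fell, where 7.41% of all genes were called. In striatum 18 of the 19 were tested, and Nfil3 alone was called, higher at 12 h by 1.29 (edgeR adjusted p 0.0489), with 38.8 and 36.6 normalised counts in PTU mice and 57.6, 102, 98.8 and 110.1 at 12 h, where 0.960% of all genes were called. This call held in 2 of 10 fits that left out a library, with an edgeR adjusted p of 0.317 without PTU replicate 3 and 0.270 without PTU replicate 6. The call was also lost with mitochondrial rows left out (edgeR adjusted p 0.0505) and with the Y-linked term (0.0648). The change of Nfil3 at 6 h in WAT was opposite in sign to that at 12 h in striatum, with a difference of -3.66 (edgeR adjusted p 4.54e-06). Time and tissue are not separable in it.

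The genes whose pattern over the libraries was most like that of a clock gene were named by the highest Pearson r of log2 CPM, as a description. In WAT, over 12 libraries that fall into 3 groups and so share the group means, Arntl was most like Npas2 (r 0.974), Npas2 like Nfil3 (0.980), Clock like Npas2 (0.958), Per3 like Tef (0.980) and Nr1d1 like Dhtkd1 (0.976). Per2 was most like Zyg11b (0.976), with Dbp next (0.971), Per1 like Fam83a (0.958), Cry1 like Lynx1 (0.963), Cry2 like Vnn3 (0.964) and Nr1d2 like Pdcd4 (0.960). Of the 30 genes named by this rule in WAT, the 3 nearest of each clock gene, 4 places went to genes of the loop and 4 to the 19 other clock genes. In striatum, over 10 libraries, none of the 30 places went to either list, and r ran from 0.890 to 0.992.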

How the data were processed

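RNA was sequenced from striatum (10 libraries) and WAT (12 libraries). For each tissue the authors deposited a table of unnormalised counts, whose rows are gene symbols. According to the study's methods and the submitters' processing notes, reads were aligned with Bowtie2 (2.2.6.2) to GRCm38, reads of low mapping quality were dropped, and htseqcount assigned the rest to genes. The release of the annotation and the strand setting were not given in the sources used here. Rows whose symbols had become dates (14 in striatum, 15 in WAT, at most 0.201% of a library's counts) were left out of library sizes and tests. Many WAT rows share reads with a copy, but no row of either table came within 2% of a clock gene in every library.

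Groups were taken from the labels. Each tissue was fitted with its 3 groups in edgeR 4.0.16 (R 4.3.3, limma 3.58.1) with TMM scaling, the quasi-likelihood F test, two-sided, and genes with a mean normalised count above 10 (15827 in striatum, 17928 in WAT). Benjamini-Hochberg adjustment ran over all genes tested. The study's processing notes name DESeq2, which was run as an alternative (1.42.0, Wald test). The SE is the size of the log2 change divided by the square root of F. The interaction used genes with a unique symbol in both tables. The scripts were tested on simulated data. Alternatives were other scaling, no filter on low counts, leaving out mitochondrial rows, only the groups compared, a term for Y-linked genes, leaving out each library and the replicate number as a block. The fit without 24 h replicate 2 of striatum and with the Y-linked term was added after seeing the data. Between libraries of different groups that carry the same number, residuals had an r of -0.395 to 0.267 in striatum (6 pairs) and -0.472 to 0.394 in WAT (12 pairs), so the numbers were not taken to pair animals.

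The clock genes, the other gene lists and the tests were chosen with earlier results of these data known. All 10 clock genes are named in each comparison except that between the times in striatum, which is given as counts of genes and medians. Other clock genes are given as counts, with values for those past the test against PTU except 1 that is not reported here, Thra is named because it overlaps Nr1d1, and the 3 genes of highest r were kept for each clock gene and tissue. Per2 has no promoter in the RefSeq table used.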

Additional observations from a re-analysis of the deposited data

Results flagged for a closer look

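In 3 of the 50 groups of 4 libraries examined (10 clock genes in 5 groups), 1 library stood far from the others, its gap to the nearest exceeding Dixon's critical value for the range. Chance gives about 1 in 20. In striatum at 12 h, replicate 4 had 463 normalised counts of Npas2, where the others had 569 to 575, and 582 of Per1, where they had 344 to 365. In WAT at 24 h, replicate 4 had 227 normalised counts of Cry1, where the others had 337 to 344. Without that library Cry1 was still higher at 24 h than in PTU mice, by 0.97 on the log2 scale (edgeR adjusted p 0.0102).

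The change against PTU differed between the tissues by the interaction test for 9 pairs of gene and time. Of all genes, 5.14% were called at 24 h and 5.01% at the early times. The calls of Nr1d2 at 24 h and of Clock at the early times did not hold under every alternative run. At 24 h the difference, WAT minus striatum, in the log2 change against PTU was -1.81 for Nr1d1, -1.39 for Nr1d2 and -1.16 for Cry2. At the early times, which were 6 h in WAT and 12 h in striatum, it was -3.72 for Npas2, -2.09 for Arntl, -0.59 for Clock, 3.34 for Per2, 2.63 for Per3 and 1.63 for Nr1d2. Nr1d2 is the 1 gene in both sets, higher in WAT at the early time and lower at 24 h.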

How the results depend on the processing

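The count of called clock genes in striatum at 12 h was 0 and became 1 (Per2, lower) with DESeq2, with no filter on low counts, with only the groups of the comparison, and with the added fit without 24 h replicate 2 and with the Y-linked term. It was 0 to 1 when each library was left out in turn, and 0 at 24 h and between the times under every alternative run. For the difference between the tissues at 24 h it was 3, and 2 to 5 when each of the 22 libraries was left out, with 5 without WAT PTU replicate 1 (Per3 and Cry1 added). In WAT the counts were 7, 4 and 9 (6 h, 24 h, between the times), and 6 to 8, 4 to 5 and 8 to 10 without a library; the early difference was 6, and 5 to 7. With the replicate block the counts were 6, 4 and 8 in WAT and 0 in striatum between the times, where Per1 at 6 h and Cry2 between the times lost their call and no other clock gene did. For striatum at 12 h and 24 h against PTU and for the differences between the tissues, no block was fitted. No paired analysis was possible because the PTU and TH groups of striatum share 1 replicate number, which gives 1 pair. No called change turned its direction under any alternative run. Leaving out a PTU library of striatum leaves 1, which is assumed to vary like the other groups. Over all genes, calls in striatum at 12 h were 152, but 795 with DESeq2, 308 with no filter, 1468 with only the groups compared, 979 in the added fit, 87 with the Y-linked term and 0 to 1259 without a library. At 24 h they were 55, but 203, 104, 0, 76, 4 and 0 to 114 in the same order, and between the times 0, but 240, 41, 0, 3, 0 and 0 to 78, and 7 with the block. In WAT at 6 h they were 1296, but 2106 with DESeq2 and 832 with only the groups compared, and 684 to 1899 without a library; at 24 h 3060, but 2036 with only the groups compared, and 1944 to 4272; between the times 1329, but 2165, 2433 and 778 with DESeq2, only the groups compared and the block, and 656 to 2043. For the differences they were 656 at 24 h, but 424 with no filter, 242 with only the groups compared and 216 to 1084 without a library, and 640 at the early times, but 1032 with DESeq2, 306 with no filter and 151 to 901. The cause of these shifts was not tested.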
